A study of Mus musculus with 64 samples.

Results

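Lymphomas of PiggyBac (PB) and Sleeping Beauty (SB) mice were compared gene by gene, to ask which genes hold a larger share of a tumour's transposon insertions, and of its sequencing reads, in one system than in the other. The comparison used every sample labelled as tumour, 30 of genotype IMPB and 11 of genotype IMSB, which makes 41 of the 64 samples of the series. The other 23 samples are tails, 12 IMPB and 11 IMSB, and they were used as the background of each system. Each sample is 1 mouse, so an SD or a range over samples is a spread between mice. All mice carried an ITP transposon array and a transposase knocked into the Rosa26 locus, Rosa26PB or Rosa26SB, on a mixed genetic background. The SB mice came from crosses in which both parents were homozygous for the Blm m3 allele, with the lines ITP1-C or ITP2-M, and were double- or triple-transgenic. Offspring of such parents carry the allele on both copies, though the text used here does not list Blm status or ITP line by mouse. It gives neither for the PB mice. Age and treatment are not given in the labels. Transposase and cohort go with the system and cannot be told apart. Whether the transposon line does so too is not stated.

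A DNA transposon is cut out of a donor locus by its transposase and put back elsewhere, PB at the motif TTAA and SB at TA. ITP transposons carry splice acceptors and polyadenylation signals in both directions and so can truncate the transcript of a gene they enter, whichever way they point. In a clonally expanded tumour, an insertion present in the founding cell is read many times, while insertions of small subclones are read a few times. The transposase is constitutive, which means that all cells of these mice can be hit and that transposition goes on in the tumour. The tumours were classified as diffuse large B-cell lymphomas by histology and were sampled at different sites. Mesenteric lymph nodes or masses made up 15 of the PB and 4 of the SB tumours, spleens 6 and 3, and other sites 9 and 4. Since DNA was sequenced, the labelled tissue could not be checked against expression markers.

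Insertions were counted once per sample and motif position on the autosomes without chromosome 14, the donor chromosome. The PB tumours had between 756 and 10800 insertions (156875 in all) and the SB tumours between 760 and 8786 (43809 in all). Reads on these insertions ranged from 60538 to 5721832 per PB tumour and from 56871 to 162837 per SB tumour. Because 3 insertions over the 11 SB tumours correspond to 0.0685 per 1000, a gene with no insertion there may still have had a share up to that value. This limit covers counting error only, as reads from PCR without molecular identifiers are not independent molecules. Positions were also shared between samples: another sample of the same system had an insertion at the same position for 8.98% of PB tumour insertions, against 1.61% in SB. These chromosomes hold 13199264 TTAA and 143206282 TA sites. PB thus had fewer possible positions and more insertions, and the 2 percentages are not like for like. All 11 SB tumours have names written in 1 form (joined), against 22 of the 30 PB tumours.

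Among the insertions behind the results were the following, shown with 30 bases of the GRCm38 reference read on its plus strand. For each gene the position with the largest share of a tumour's reads was taken, except for En2, where it was the position carried by the most tumours. The motif is in capitals, TTAA for PB and TA for SB.
Gna13, PB, chr11:109381517-109381546: tgagggctcatttTTAAgagactatataaa
Ikzf1, PB, chr11:11699944-11699973: gtaatgctgttttTTAAaggatcaaggtct
Basp1, PB, chr15:25381725-25381754: tcacatccctgtcTTAAggggggaaaccct
Fas, PB, chr19:34319445-34319474: attagcactttctTTAAaacaaattcaagt
Fas, SB, chr19:34321839-34321868: ttttttaaatgagaTAtaatggaaactatt
Ptprc, PB, chr1:138155173-138155202: gtctgatgattctTTAAtaaaagtgctttg
Ptprc, SB, chr1:138109542-138109571: tggtatttattaagTAtaaccattagtttt
Cbfb, SB, chr8:105178210-105178239: tatatacaactttaTAttatgctttaaatt
Skint5, SB, chr4:113938071-113938100: actcatgtgttaaaTAtcaatatgcacagt
En2, SB, chr5:28170221-28170250: ttcagaccaacaggTAcctgacagagcagc
All but the En2 site lie in introns of their gene, and the En2 site lies in an exon. The Gna13 insertion held 11.0% of the reads of its tumour, the PB insertion in Fas 14.2% and the SB insertion in Fas 6.68%, whereas those in Ptprc held 1.71% (PB) and 0.235% (SB). The En2 position was carried by 10 of the 11 SB tumours and held 0.203% of the reads where it was highest.

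Of 3307 genes with at least 10 insertions and a hit in at least 3 tumours, 59 (1.78%) held a larger share of the insertions in PB tumours and 37 (1.12%) in SB tumours (edgeR quasi-likelihood test, Benjamini-Hochberg adjusted p below 0.05). The share is the number of insertions in a gene over all kept insertions of the tumour, and differences are given as log2 of PB over SB. The 59 genes spanned log2 differences from 1.30 to 3.63, and the 37 from -4.69 to -1.14. In 24 of the 59 genes no SB tumour carried an insertion, so that the fitted value depends on the prior count of the model. With such genes set at the limit that 3 insertions allow, the median over the 59 was 2.0, against 2.65 as fitted. The median over all genes tested was 0.33. It rose by 0.22 under TMM scaling, which gave 118 genes higher in PB, among them the same 59, and 17 higher in SB, all 17 of them among the 37. With DESeq2 the numbers were 55 and 11, of which 36 and 11 were shared. PB made up 61.5% of the calls as reported, 87.4% with TMM and 83.3% with DESeq2. Correcting for the number of motif sites, with an offset for the share of all TTAA or TA sites that a gene holds, gave 51 (1.54%) and 39 (1.18%), and 46 of the 59 and 36 of the 37 stayed called. Without SB tumour 11 (a mesenteric mass) 30 genes were higher in PB and 37 in SB, a PB share of 44.8%, and without SB tumour 1 (a mesenteric mass) 38 and 36 (51.4%). Without a minimum number of insertions the numbers were 12 and 20. Which system held more of the calls thus changed between settings. Insertions at positions carried by a single sample gave 33 and 26.

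Gene lists were also compared, chosen with earlier results of these data known. The list of B-lineage transcription factors had the most genes higher in PB. Of its 35 members, 22 were tested and 8 were higher in PB (36.4%, against 1.78% of all genes tested), with none higher in SB. Their median log2 difference was 1.03, against 0.33 for all genes tested. Tails were skewed in the same direction, with a median of 0.84 (0.07 for all genes tested) and 1 member higher in PB. Over the whole list, PB tails had 4.33 insertions per 1000 and SB tails 1.74. Ikzf1 (chromosome 11, 11684962 to 11772930) encodes Ikaros, a zinc finger factor needed for lymphocyte development. Its share ranged from 0 to 1.77 insertions per 1000 in PB tumours (median 0.522, 23 of 30 hit) and from 0 to 0.421 in SB tumours (median 0, 4 of 11 hit). The ranges overlapped at the low end, and the difference was 2.31 ± 0.67 (log2, SE; edgeR, adjusted p = 0.0035). Using positions of a single sample only, it was 1.71 (edgeR, adjusted p = 0.083). Ikzf3 (chromosome 11, 98464610 to 98546031), which encodes the related factor Aiolos, ranged from 0 to 1.43 per 1000 in PB tumours (median 0.432, 82 insertions in 23 tumours). In SB tumours it had 2 insertions in 2 tumours, with a highest share of 0.165. The PB share over the pooled insertions was 11.4 times the SB share (exact 95% interval 3.07 to 96.1; edgeR, adjusted p = 0.0021). This interval, like those of the other pooled ratios below, treats insertions as independent. It covers counting error only and leaves out the spread between mice.

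The other 6 factors were lower in level or nearer the threshold. Etv6, an ETS family repressor, had 65 insertions in 27 PB tumours against 2 in 1 SB tumour, 9.08 times the SB share (exact 95% interval 2.41 to 76.5; edgeR, adjusted p = 0.0075). Tcf4, an E protein, had 84 against 5 and a log2 difference of 2.0 ± 0.67 (edgeR, adjusted p = 0.021). Ets1 had 44 insertions in PB tumours and 1 in SB tumours (edgeR, adjusted p = 0.021). Pou2f2, which encodes the octamer-binding factor Oct-2, had 53 and 2, and its B-cell coactivator Pou2af1 had 25 and 0 (edgeR, adjusted p = 0.026 for each). The Pou2af1 share was at least 2.33-fold higher in PB. Mef2c (chromosome 13, 83504017 to 83667079), a MADS box factor that acts downstream of the B-cell receptor, was hit in 29 of 30 PB tumours, with 0 to 4.14 per 1000 (median 0.847). It was hit in 6 of 11 SB tumours, where 11 of the 18 insertions were in tumour 8, a thymus. The difference was 1.30 ± 0.41 (edgeR, adjusted p = 0.036) and rose to 2.58 without that tumour (edgeR, adjusted p = 5.0e-05), whereas with the motif offset it was 0.98 (edgeR, adjusted p = 0.14). For Mef2c, 11 of the 41 omissions of a single tumour ended the call.

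**Figure D1:**
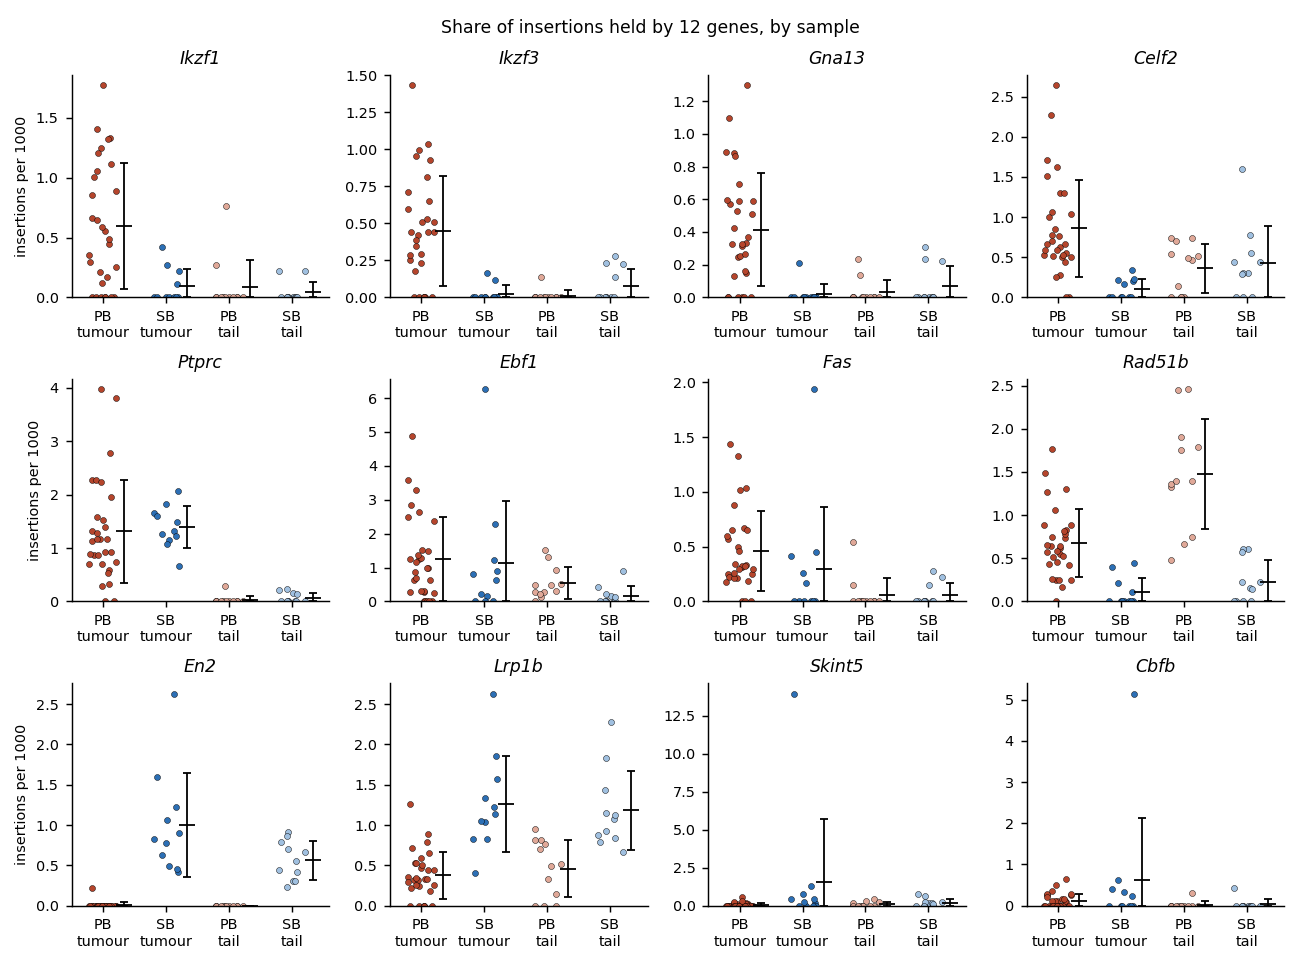
Insertions per 1000 kept insertions for 12 genes (y axis), with 1 point per sample in 4 groups (x axis: 30 PB tumours, 11 SB tumours, 12 PB tails, 11 SB tails) and the mean with its SD as a bar cut at 0. Ikzf1, Ikzf3, Gna13 and Celf2 were higher in PB tumours, Ptprc had means of 1.31 and 1.39 per 1000 in PB and SB tumours, En2 was at 0 in 29 of 30 PB tumours, and the highest points of Skint5 and Cbfb are single SB tumours.

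The smallest p among genes higher in PB belonged to Celf2, Erp44, Ikzf3 and Gna13. Celf2 (chromosome 2, 6539694 to 7396341), a regulator of splicing, had 131 insertions in 28 PB tumours, between 0 and 2.65 per 1000 (median 0.663). In SB tumours it had 7 insertions in 5 tumours, at most 0.341 per 1000. The log2 difference was 2.26 ± 0.60 (edgeR, adjusted p = 0.0019). Erp44 (chromosome 4, 48190711 to 48279635), an endoplasmic reticulum protein that retains secretory cargo, had 105 insertions in 26 PB tumours and 4 in 4 SB tumours, a log2 difference of 2.55 ± 0.73 (edgeR, adjusted p = 0.0020).

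Gna13 (chromosome 11, 109362794 to 109401369) encodes a G protein alpha subunit that restrains germinal centre B cells. It had 67 insertions in 24 of 30 PB tumours, from 0 to 1.30 per 1000 (median 0.328), and a single insertion over the 11 SB tumours. The pooled PB share was 18.7 times the SB share, with an exact 95% interval from 3.25 to 750 that reflects the single SB insertion (edgeR, adjusted p = 0.0021). Among mesenteric tumours alone the log2 difference was 4.56 (edgeR, adjusted p = 0.023). The single SB insertion was in SB tumour 6, a spleen. No mesenteric SB tumour carried one, so that the value of 4.56 depends on the prior count of the model. Gna13 was not tested among spleens because it had too few insertions. Mtss1, which encodes a membrane and actin binding protein, had 46 insertions in 21 PB tumours and none in SB tumours, at least 4.28-fold higher (edgeR, adjusted p = 0.0023). Rftn1, which encodes the lipid raft protein raftlin, had 54 and 1 (15.1 times, exact 95% interval 2.59 to 607; edgeR, adjusted p = 0.0073).

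Tox (chromosome 4, 6686353 to 6991557), an HMG box factor of T-cell development, was the member of the T-lineage list that was called. It had 179 insertions in 27 PB tumours, between 0 and 5.66 per 1000, and 14 in 7 SB tumours, at most 0.799 per 1000. The difference was 1.73 ± 0.46 (edgeR, adjusted p = 0.0047). Tmem131 had 100 and 4 insertions (2.45 ± 0.72, log2, SE; edgeR, adjusted p = 0.0032). Basp1 (chromosome 15, 25363277 to 25413764), which encodes a membrane-attached signalling protein, had 82 insertions in 20 PB tumours against 4 in 3 SB tumours. Its difference was 2.19 ± 0.73 (edgeR, adjusted p = 0.014), and 1.67 from positions of a single sample (edgeR, adjusted p = 0.11). Rad51b, a gene of homologous recombination, had 110 insertions in 29 PB tumours and 5 in 4 SB tumours (2.37 ± 0.67, log2, SE; edgeR, adjusted p = 0.0026). Further genes higher in PB, chosen here after their values were seen, were Cd74, the invariant chain of MHC class II, with 22 insertions and 0, Tec, a kinase of B-cell receptor signalling, with 64 and 2, and Cdk6, a cell cycle kinase, with 67 and 3. Celf2, Erp44, Gna13, Ikzf1, Etv6, Pou2f2, Cd74 and Cdk6 each overlap a microRNA, non-coding or predicted gene in the annotation, so an insertion in the overlap counted for both.

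Higher in SB by the widest margin was En2 (chromosome 5, 28165696 to 28172190), a homeobox gene of the midbrain and hindbrain. It was hit in all 11 SB tumours, with 33 insertions, between 0.414 and 2.63 per 1000 (median 0.824). A single one of the 30 PB tumours carried it, with 1 insertion (0.220 per 1000). No PB tumour reached the lowest SB tumour, and En2 was the only gene of the 3307 tested (0.0302%) whose SB tumours all lay above all PB tumours. The pooled SB share was 118 times the PB share (exact 95% interval 19.8 to 4807), and the fitted log2 difference was -4.69 ± 0.73 (edgeR, adjusted p = 5.9e-16). The 33 insertions lay on 9 positions, 5 of them carried by at least 2 tumours. In SB tumours 4, 6, 8, 10 and 11, neighbouring positions between 4.165 and 4.178 kb from the gene start formed a pair. Each pair had opposite orientations and equal reads, with 195, 168, 517, 180 and 28 per position in these tumours. Whether such a pair is a single event counted more than once was not tested. Without positions that several samples carry, En2 had too few insertions to be tested. En2 is a locus known to recur in SB screens without selection, and its splice acceptor is used in many gene-trap vectors. Sfi1, a gene for a centrosomal protein and another such locus, had 42 insertions in 11 of 11 SB tumours and 69 in 22 of 30 PB tumours. The Sfi1 difference of -1.10 ± 0.37 did not pass the threshold (edgeR, adjusted p = 0.064), whereas it did with the motif offset (-1.20; edgeR, adjusted p = 0.040).

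Of the 37 genes higher in SB, 32 were longer than 200 kb and 21 longer than 500 kb, with a median of 554 kb, against 111 kb for all genes tested and 119 kb for the 59 genes higher in PB. The list called very long neuronal genes had 51 of 57 members tested, with a median length of 1136 kb. Of these, 10 were higher in SB (19.6%, against 1.12% of all genes tested; 29 at an unadjusted p below 0.05) and none in PB. Their median log2 difference was -0.92, against 0.33 for all genes. Tails were skewed alike, with a median of -1.10 (0.07 for all genes), 5 members higher in SB and 0 in PB, and 19.3 insertions per 1000 in PB against 35.0 in SB tails over the whole list. Lrp1b (chromosome 2, 40595290 to 42653598), a lipoprotein receptor of the LDL receptor family, had 52 insertions in 11 of 11 SB tumours, from 0.399 to 2.63 per 1000, and 63 in 24 PB tumours, from 0 to 1.27 per 1000. The ranges overlapped, and the difference was -1.52 ± 0.36 (edgeR, adjusted p = 0.0030). Ptprt, a receptor tyrosine phosphatase, had 26 insertions in SB and 22 in PB tumours (-1.87 ± 0.47, log2, SE; edgeR, adjusted p = 0.0042). Chl1, a neural cell adhesion gene, had 20 insertions in 10 SB tumours and 7 in 6 PB tumours (-2.85 ± 0.57, log2, SE; edgeR, adjusted p = 2.15e-05). Hecw1, a ubiquitin ligase gene, had 12 and 4 (-2.53 ± 0.68, log2, SE; edgeR, adjusted p = 0.0020).

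Several genes higher in SB were led by 1 tumour. In 6 of the 37 (Birc3, Camta1, Cbfb, Kcnh5, Lrrc4c and Skint5) more than 50% of the SB insertions came from 1 tumour. In none of the 59 genes higher in PB did 1 tumour hold more than 37.5%. These shares are not like for like, since there were fewer SB than PB tumours and 1 of fewer tumours tends to hold more. The share held by 1 tumour was not worked out over all genes tested, so whether the called genes stand out was not tested. Skint5 (chromosome 4, 113477891 to 113999503), a member of the Skint family of which Skint1 acts in the thymus on gamma delta T cells, had 46 insertions in SB tumours. Of these, 35 were in SB tumour 8, the thymus, at 14 per 1000, and the PB tumours had 10 in all. The difference of -3.88 ± 0.50 became -1.72 without that tumour (edgeR, adjusted p = 2.3e-15 and 0.062). The 46 insertions lay at 46 different positions, but those of SB tumour 8 were not spread evenly over the 522 kb of the gene. Its insertion 61.4 kb from the gene start held 2.92% of the tumour's reads, and many of its others lay near it with few reads. The median position was 101 kb in SB and 306 kb in PB tumours. Whether the insertions of SB tumour 8 arose independently was not tested.

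Cbfb (chromosome 8, 105170674 to 105217989) encodes the common subunit of the core-binding factors. It had 31 insertions in 5 SB tumours, 23 of them in SB tumour 3, a spleen, at 5.15 per 1000, and 18 in 15 PB tumours, at most 0.649 per 1000. Most of the 23 lay between 3.19 and 21.2 kb from the start of the 47.3 kb gene. The insertion at 7.55 kb held 1.87% of the reads of SB tumour 3. The difference was -2.38 ± 0.47 (edgeR, adjusted p = 4.4e-05) and -0.68 without that tumour (edgeR, adjusted p = 0.54), and it was 0.37 among mesenteric tumours. Camta1 had 27 of its 36 SB insertions in tumour 10, a mesenteric lymph node, and its difference went from -2.14 to -0.30 without it (edgeR, adjusted p = 0.00012 and 0.79), and DESeq2 gave it as 0.15. Lrrc4c had 21 of 41 in tumour 1 and went from -1.92 to -1.11 (edgeR, adjusted p = 0.00039 and 0.16). Naaladl2 had 13 of 47 in tumour 9, from the proximal small intestine, and went from -1.71 to -1.16 (edgeR, adjusted p = 0.0015 and 0.073). Birc3, which encodes the inhibitor of apoptosis cIAP2, was the only member of the NF-kB list called. It had 16 of its 17 SB insertions in tumour 8 and turned from -1.65 (edgeR, adjusted p = 0.032) to 1.56 (edgeR, adjusted p = 0.21), and to 1.46 with DESeq2. What sets these tumours apart was not tested.

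Some genes hit often in both systems did not differ in their share beyond the spread of the tumours. Ptprc (chromosome 1, 138062859 to 138175756) encodes CD45, the receptor tyrosine phosphatase of leukocytes. It was hit in 28 of 30 PB tumours, with 191 insertions from 0 to 3.97 per 1000 (median 1.15), and in 11 of 11 SB tumours, with 61 insertions from 0.672 to 2.07 per 1000 (median 1.32). The SB values lay inside the PB range. The log2 difference was -0.17, with a 95% interval from -0.77 to 0.43 (edgeR, adjusted p = 0.80), and its sign turned with TMM (0.11) and DESeq2 (0.16). Ebf1 (chromosome 11, 44618100 to 45008096), an early B-cell transcription factor, had 219 insertions in 25 PB tumours and 57 in 8 SB tumours, 24 of them in SB tumour 2. Its difference was 0.08, with a 95% interval from -0.52 to 0.69 (edgeR, adjusted p = 0.90), and 0.82 without that tumour (edgeR, adjusted p = 0.15). Fas (chromosome 19, 34290647 to 34327775), the death receptor, was hit in 27 of 30 PB tumours and in 5 of 11 SB tumours. It had 68 and 22 insertions, 17 of the latter in SB tumour 11. The fitted difference was -0.01 (edgeR, adjusted p = 0.99) and rested on that tumour, since it was 1.46 without it (edgeR, adjusted p = 0.16). For Fas, TMM gave 0.14 and DESeq2 gave 2.01 (adjusted p = 0.048). Traf3, an adaptor that restrains non-canonical NF-kB signalling, had 32 insertions in 8 SB tumours and 48 in 18 PB tumours (-1.20 ± 0.41, log2, SE; edgeR, adjusted p = 0.069). It passed with the motif offset (-1.34; edgeR, adjusted p = 0.035). Blm had 7 insertions in PB and 1 in SB tumours, too few to be tested.

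The positions inside genes can be compared as well. In Fas, with a length of 37.1 kb, the median insertion lay 30.4 kb from the annotated start in PB and 31.2 kb in SB tumours, and 69.1% and 68.2% of the insertions were in the sense orientation. In Ptprc the medians were 38.6 kb in PB and 57.1 kb in SB, over a length of 113 kb, and the orientations were near balance (50.8% and 49.2% sense). In Ebf1, the medians were 140 kb in PB and 223 kb in SB over 390 kb. SB tumour 2 held 24 of the SB insertions in Ebf1, most of them between 189.5 and 237.4 kb, so the SB median leans on that tumour. These are descriptions, since insertions of 1 tumour are not independent samples. In Ptprc, 33 of the 149 PB positions were carried by at least 2 PB tumours and 1 position by 6, against 3 of the 58 SB positions, none by more than 2. These counts are not like for like, since PB had more tumours and fewer possible positions than SB. In Fas, 20 of 38 PB positions were carried by at least 2 PB tumours.

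**Figure D2:**
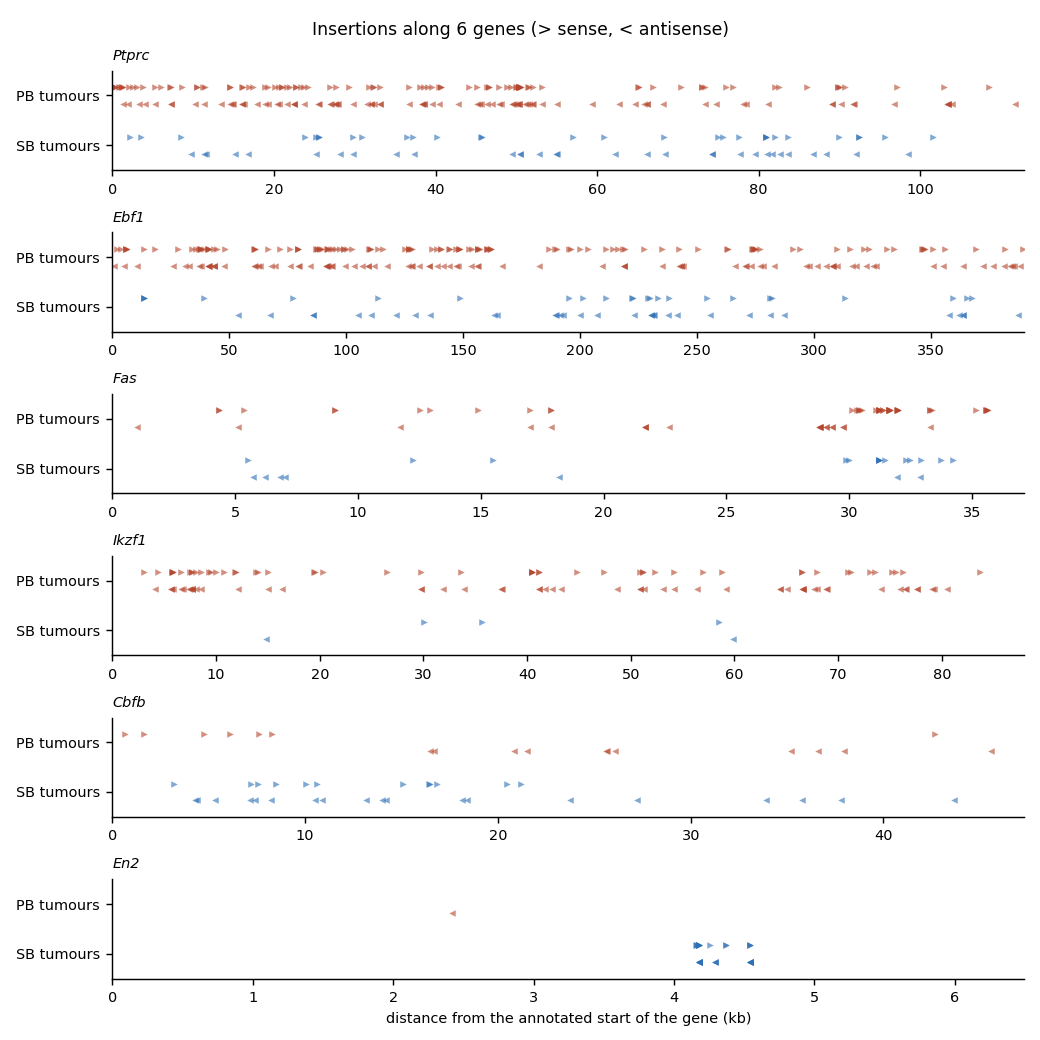
Insertions of all PB and SB tumours along 6 genes, by distance in kb from the annotated start (x axis), with markers pointing right for sense and left for antisense orientation. Insertions in Fas gathered near 30 kb in both systems, and those in Ptprc and the PB insertions in Ebf1 were spread over the gene. Many SB insertions in Ebf1 lay between 189.5 and 237.4 kb, most of these from SB tumour 2. The SB insertions of En2 lay between 4.16 and 4.54 kb.

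Reads follow the size of clones more closely than the number of insertions does, but a single large clone can decide a gene's sum. Gna13 held more than 1% of the reads in 14 of 30 PB tumours, in each case at least 1.38%, and the next tumour had 0.102%. It held 1.95% ± 3.03 of the reads of PB tumours (SD, n = 30, highest 11.0%) and at most 0.0213% in any SB tumour (permutation test, two-sided, p = 0.0002, adjusted over 58 genes p = 0.0023). Genes such as Gna13 and En2 entered the 58 through their insertions in these same tumours. A tumour without an insertion in a gene has no reads there, so the read test is not separate support. The adjustment also leaves out the tested genes that were not named. Gna13 was also the gene with the most reads in 8 of 30 PB tumours and in no SB tumour, whereas Fas led in 3 SB tumours and Malt1, which encodes a paracaspase of NF-kB signalling, in 2. By site, it exceeded 1% in 10 of 15 mesenteric PB tumours against 0 of 4 SB (Fisher's exact test, p = 0.033), in 0 of 6 spleens of PB mice and 0 of 3 of SB mice, and at other sites in 4 of 9 and 0 of 4 (Fisher's exact test, p = 0.23). These p are not adjusted over the sites. The difference in the count over all sites, 14 of 30 against 0 of 11 (Fisher's exact test, p = 0.0071), had an adjusted p of 0.078 over the 14 genes that reached 1% in at least 3 tumours.

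Fas held more than 1% of the reads in 20 of 30 PB tumours and 3 of 11 SB tumours (Fisher's exact test, p = 0.036, adjusted p = 0.17). The mean share of reads in Fas was 2.05% ± 2.94 in PB (SD, n = 30) and 1.37% ± 2.43 in SB (SD, n = 11), within the spread (permutation test, two-sided, p = 0.56). For Ebf1 the counts were 10 of 30 and 3 of 11, with a mean of 0.679% and 1.34% (permutation test, two-sided, p = 0.20). Ptprc, hit in nearly all tumours, held 0.245% ± 0.435 (SD, n = 30) and 0.122% ± 0.105 (SD, n = 11) of the reads and exceeded 1% in 2 PB and 0 SB tumours. Ikzf1 held 0.109% of the reads in PB and 0.0192% in SB tumours, which did not differ beyond the spread (permutation test, two-sided, p = 0.39), the highest PB tumour having 2.24%. En2 held 0.347% ± 0.214 in SB tumours (SD, n = 11) and at most 0.00235% in PB tumours (permutation test, two-sided, p = 2e-05, the smallest these permutations can give). In no tail did Gna13, Fas, Ebf1, Ptprc or Ikzf1 reach 1% of the reads. En2 exceeded it in SB tails 4, 10 and 11 (1.17%, 1.35% and 1.05%), and its lowest share in an SB tail was 0.455%. In SB tumours the highest En2 share was 0.734%.

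**Figure D3:**
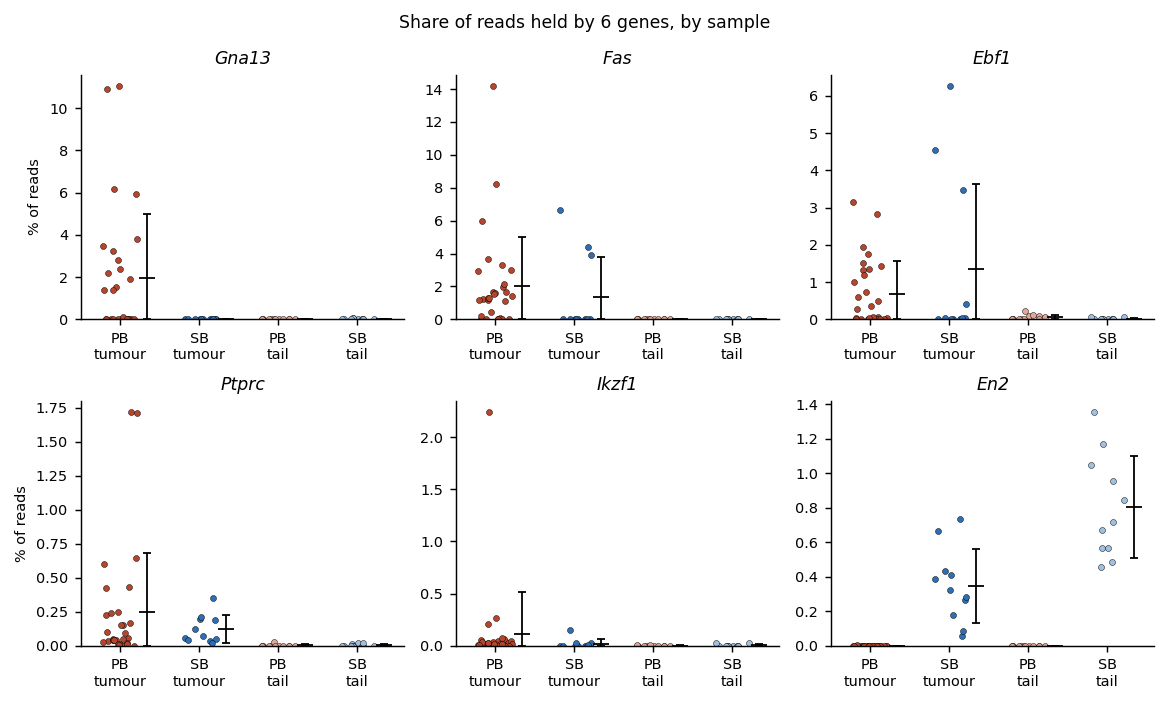
Percent of a sample's reads held by 6 genes (y axis), with 1 point per sample in 4 groups (x axis) and the mean with its SD as a bar cut at 0. For Gna13, 14 PB tumours lie above 1% and all SB tumours near 0, whereas for Fas and Ebf1 both systems have tumours above 1%, and En2 is raised in SB tumours and SB tails.

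The edgeR test of summed reads gave 337 genes higher in PB (10.2%) and 82 higher in SB (2.48%). These calls were not relied on: with 200 of 3307 genes changed 64-fold in simulated data of the same spread, it found 124 of the 200 and added 71 false calls. With limma on log2(reads per 10000 + 1), 0 genes were higher in PB and 8 in SB, while 71 and 197 had an unadjusted p below 0.05. The 5 genes with the smallest p in the edgeR test that were higher in PB were Jph1, Ccdc146, Mbd2, Rassf6 and Prrc2b. Each was without SB insertions and had between 12 and 27 insertions in PB tumours. The 5 higher in SB were En2, Aldh1a2, Nkx2-2os, Ism1 and Atrn. The last 4 had between 5 and 9 SB insertions, and in Ism1 and Nkx2-2os all but 1 of them were in SB tumour 1. Of these 10 genes, Ccdc146 (27 insertions and 0), En2 and Atrn (5 and 9) also differed in insertions (edgeR, adjusted p = 0.021, 5.9e-16 and 0.030).

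In the tails, PB differed from SB in 28 genes (0.847%) that were higher in PB and 20 (0.605%) higher in SB. The tail difference was of the same sign for 46 of the 59 genes higher in PB tumours and 29 of the 37 higher in SB tumours (78.0% and 78.4%, against 59.1% and 38.3% of all genes tested with those signs), over few insertions per gene, with a median of 4 in the PB tails for the former and of 17 in the SB tails for the latter. En2 differed in tails too, with 26 insertions in SB and none in PB tails (log2 -4.37; edgeR, adjusted p = 3.5e-05). Rad51b had 72 insertions in the 12 PB tails and 12 in the 11 SB tails, a log2 difference of 2.53 (edgeR, adjusted p = 3.5e-05), close to the 2.37 in tumours. Lrp1b had 21 and 62 (-1.39; edgeR, adjusted p = 0.049). Ikzf1, Ikzf3 and Gna13 had 3, 1 and 2 insertions in the PB tails and 2, 4 and 3 in the SB tails, and none of the 3 differed there. The test of the difference itself, tumour against tail in PB minus tumour against tail in SB, called no gene (0 of 3307 in each direction; edgeR, with 196 and 126 genes at an unadjusted p below 0.05). For Ikzf3 this difference was 4.06 (log2; edgeR, adjusted p = 0.25), for Celf2 2.34 (edgeR, adjusted p = 0.22), for En2 -0.27 (edgeR, adjusted p = 0.92) and for Rad51b -0.17 (edgeR, adjusted p = 1.0). In simulated data, 19 of 200 genes with an 8-fold difference were found by this test, so that differences of this size were mostly not detectable at this depth.

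The median log2 difference between tumours fell from 0.79 for genes up to 50 kb (555 genes) to 0.33 for genes of 100 to 200 kb (945) and -0.59 for genes over 500 kb (203). In tails the medians over the 5 classes, from the shortest to the longest, were 0.43, 0.08, 0.28, 0.05 and -0.52, which did not fall at each step. The minimum of 10 insertions was set over all tumours, most of whose insertions are from PB, so genes with few insertions passed mainly through PB. Of the tested genes without an SB insertion, 121 were in the shortest class and 0 in the longest. Such a filter can raise the medians of the short classes, and how far it did so was not tested. Of the genes over 500 kb, 3 were higher in PB and 21 in SB tumours. With the offset for motif sites the medians were 0.65 and -0.65 in the shortest and longest class. Across genes, which are not independent replicates, Spearman's rho between length and difference was -0.36 in tumours and -0.16 in tails.

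**Figure D4:**
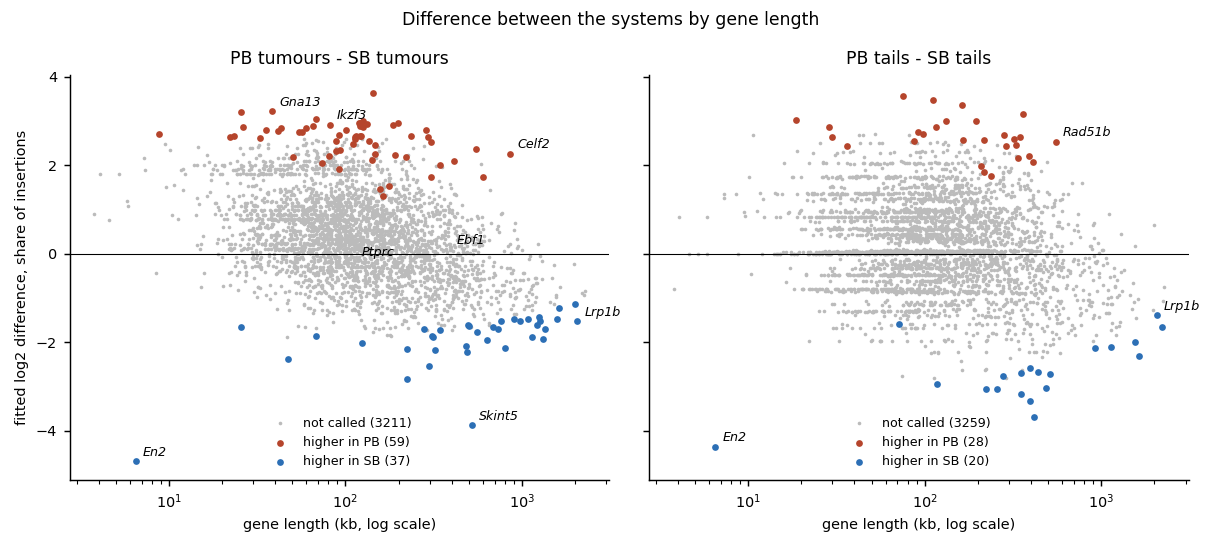
Fitted log2 difference in the share of insertions, PB minus SB (y axis), against gene length in kb on a log scale (x axis), with 1 point per gene, for tumours (left) and tails (right). Genes higher in SB lie mostly above 200 kb, with En2 as the shortest of them, and the longest genes lie mostly below 0 in both panels.

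In the remaining lists 0 or 1 gene was called, on lists so small that the 1.78% (PB) and 1.12% (SB) called over all genes tested come to less than 1 gene each. Of 20 tested genes of B-cell receptor signalling, 0 passed in either direction (edgeR, 4 higher in PB at an unadjusted p below 0.05), and 18 had a positive difference (90.0%, against 66.4% of all genes tested) with a median of 0.84. Lyn, a Src family kinase, had 47 and 3 insertions (4.38 times, exact 95% interval 1.41 to 22; edgeR, adjusted p = 0.092), Itpr2 60 and 5 (edgeR, adjusted p = 0.12) and Pik3ap1 18 and 0 (edgeR, adjusted p = 0.069). Of the chromatin list, 0 of 31 passed (median 0.58, 2 at an unadjusted p below 0.05), with Setd2 at 25 and 1, Setd5 at 34 and 2 and Nsd2 at 24 and 2 insertions. Of 15 genes of PI3K and mTOR signalling 0 passed (median 0.33, 2 at an unadjusted p below 0.05), with Sesn1 at 43 and 2, Foxo3 at 19 and 1 and Gsk3b at 64 and 10. The death receptor, apoptosis and p53 list had 0 of 11 called (edgeR, 4 higher in PB at an unadjusted p below 0.05). Its median of 1.24 fell to 0.03 with its 4 genes without SB insertions at their limit, among them Bcl2l11 (17 and 0), Atm (11 and 0) and Bid (11 and 0). In the NF-kB list, Birc3 was the 1 called gene of 11 tested (median 0.22), and Tnfaip3 had 14 and 1. Core-binding factor genes had Cbfb as the 1 called gene of 6 (median 0.50), with Runx2 at 63 and 7 and Runx1t1 at 13 and 1. Blm partners and recombination repair genes had Rad51b as the 1 called gene of 5 (median 1.09), with Msh6 at 12 and 0 and Fancc at 19 and 2. In the T-lineage list, Tox was the 1 called gene of 9 (median 0.62). Themis had 14 insertions in PB and 13 in SB tumours (-1.50 ± 0.55, log2, SE; edgeR, adjusted p = 0.076) and Notch2 25 and 3.

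**Figure D5:**
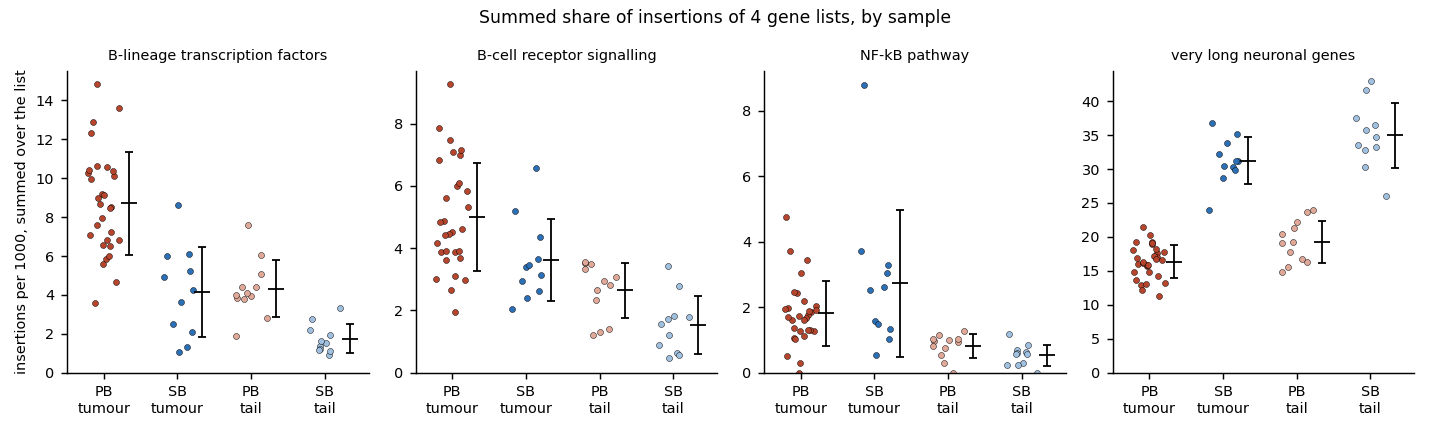
Insertions per 1000 summed over all annotated members of 4 gene lists (y axis), with 1 point per sample in 4 groups (x axis) and the mean with its SD as a bar cut at 0. The B-lineage transcription factors summed to 8.71 ± 2.64 in PB and 4.16 ± 2.32 in SB tumours and to 4.33 and 1.74 in the tails, the very long neuronal genes to 16.4 and 31.2 in tumours and 19.3 and 35.0 in the tails, and the highest NF-kB value is 1 SB tumour at 8.79.

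The systems also differed in where in the gene annotation their insertions fell, measured per tumour over all genes. The share of insertions inside genes was 59.2% ± 2.15 for PB (SD, n = 30, lowest 55.4%) against 49.9% ± 1.48 for SB (SD, n = 11, highest 51.7%), without overlap. Genes over 500 kb held 5.97% of the insertions in PB and 8.74% in SB tumours, and genes under 50 kb held 16.9% and 11.2%, again without overlap (permutation test, two-sided, p = 2e-05 for each of the 3 shares, the smallest possible, adjusted over 8 measures p = 5.3e-05). The tails showed the same differences, with 55.8% and 46.9% inside genes. Among insertions inside exactly 1 gene and recorded on 1 strand, 48.3% ± 1.55 of those in PB (SD, n = 30) and 45.9% ± 1.70 of those in SB tumours (SD, n = 11) lay in the sense orientation (permutation test, two-sided, p = 0.0002, adjusted p = 0.0004). In tails the values were 49.2% and 47.6% (permutation test, p = 0.00092). They were 48.1% and 46.0% in spleens (permutation test, p = 0.26) and 48.3% and 47.1% in mesenteric tumours (permutation test, p = 0.093). The gene with the most reads held 5.96% ± 5.60 of a PB tumour's reads (SD, n = 30) and 8.07% ± 7.79 of an SB tumour's (SD, n = 11), which did not differ beyond the spread (permutation test, two-sided, p = 0.34). PB tumours had insertions in more genes, 2245 ± 866 (SD, n = 30) against 1485 ± 693 (SD, n = 11) (permutation test, two-sided, p = 0.011, adjusted p = 0.015), but their number of insertions was also higher on average (5229 against 3983; permutation test, two-sided, p = 0.15).

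Within name forms and sampling sites the gene-level result was as follows. With the 22 PB tumours of joined names, 68 genes were higher in PB and 43 in SB. Among mesenteric tumours, 15 PB and 4 SB, the numbers were 10 and 9 of 1462 genes tested, and among spleens, 6 PB and 3 SB, 0 and 2 of 484 (edgeR, 30 and 31 at an unadjusted p below 0.05). En2 was called in each of the 3 subsets (log2 -4.66, -4.09 and -4.77; edgeR, adjusted p = 6.2e-13, 0.00017 and 0.014). For Ikzf1 the differences were 2.42 with joined names (edgeR, adjusted p = 0.0024), 2.50 in mesenteric tumours (edgeR, adjusted p = 0.095) and 1.61 in spleens (edgeR, adjusted p = 0.44). For Celf2 they were 2.32, 1.92 and 1.79, of which the first passed the threshold. The share of insertions inside genes differed in the same direction in each subset, with 59.9% and 49.9% for joined names, 59.3% and 49.4% in mesenteric tumours and 60.0% and 50.7% in spleens.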

How the data were processed

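The authors deposited 1 table of 385883 lines with raw read counts per insertion position for 64 mice, after splinkerette PCR of both transposon ends and paired-end MiSeq sequencing (QiSeq). Positions are on mm10 per the submitters' processing notes. Aligner, caller and read filters are not given in the sources used here, and no line had under 2 reads. The table's other coverage column, normalized per sample (1 column), was left aside.

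Each position was assigned to the closest motif of its system, TTAA or TA, if one lay within 5 bp, and counted once per sample. Others were dropped. Sex chromosomes and chromosome 14 were left out, with chromosome 14 holding 10.2% of the PB and 24.3% of the SB tumour insertions otherwise kept (means). Genes ran from start to end of 23983 curated RefSeq genes of GRCm38.p6. Insertions and summed reads per gene were tested with edgeR 4.0.16 quasi-likelihood fits (R 4.3.3), with total kept insertions or reads as library size, among genes with at least 10 insertions and 3 tumours hit. DESeq2 1.42.0, limma 3.58.1 and Fisher's exact test were alternatives. The SE of a log2 difference comes from the information of the fit at its coefficients, with the quasi-dispersion at least 1, and its interval is 1.96 SE on either side. Ratios of pooled insertions have exact (Clopper-Pearson) intervals, which take insertions as independent and leave out the spread between mice. Single values were compared with permutation tests (100000 resamples, scipy 1.17.1), adjusted over 58 named genes or 8 measures. A fold against 0 insertions was set against 3 counts over the group.

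On simulated data for insertions in tumours (3307 genes), 54 of 200 genes changed 4-fold were found with 0 false calls, and 142 of 200 changed 8-fold with 10. Named were the 10 genes per direction with the smallest p in the insertion test, 5 per direction in the read test, up to 3 per list, and genes known from earlier results. The members, lists and tests were chosen with earlier results of these data known. A gene is not reported here. Replicates are numbered in accession order, so a number only names a sample.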

Additional observations from a re-analysis of the deposited data

How the results depend on the processing

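Numbers below are genes higher in PB and then in SB tumours, against 59 and 37 by insertions, 337 and 82 by reads and 51 and 39 with the motif offset. By insertions they were 118 and 17 with TMM, 55 and 11 with DESeq2, 6 and 2 with Fisher's exact test on tumours hit, 12 and 20 without a minimum, 30 and 16 from insertions of at least 10 reads, 0 and 2 in spleens, 10 and 9 in mesenteric tumours, and 187 and 86 with chromosome 14 kept. Positions of 1 sample only, a setting chosen after seeing the data, gave 33 and 26. By reads they were 415 and 28 with TMM, 0 and 8 with limma, 2809 and 1603 without a minimum, 54 and 26 with at least 20 insertions, 52 and 19 from insertions of at least 10 reads, 204 and 59 with joined names, 0 and 1 in spleens and in mesenteric tumours alike, and 54 in SB from positions of 1 sample only. With the motif offset they were 75 and 13 with TMM, 11 and 19 without a minimum, 22 and 15 from insertions of at least 10 reads, 0 and 2 in spleens, 7 and 9 in mesenteric tumours, and 21 in PB from positions of 1 sample only. Leaving out 1 tumour at a time gave 30 (without SB tumour 11) to 63 and 30 to 43 by insertions, 317 to 449 and 61 to 88 by reads, and 29 (without SB tumour 11) to 53 and 30 to 45 with the offset. Of the named genes' log2 differences, 564 of 653 under other settings and 2279 of 2337 with 1 tumour left out kept their sign and their side of the threshold. Signs turned for Ptprc, -0.17 as reported, to 0.11 with TMM, 0.16 with DESeq2, 0.020 with at least 10 reads, 0.029 with joined names and 0.076 with chromosome 14. They turned for Fas, -0.01 as reported, to 0.14, 2.01, 0.76, 0.092 and 0.21 in the same settings, 0.58 in spleens and 0.11 with 5 kb upstream. They also turned for Camta1 (0.15) and Birc3 (1.46) with DESeq2, Cbfb (0.37) in mesenteric tumours, Traf3 (0.074) and Ebf1 (-0.46) in spleens, and Ebf1 (-0.047) from positions of 1 sample only. With 1 tumour left out, Fas ranged from -0.16 to 1.46, Ebf1 from -0.081 to 0.82, Ism1 from -1.79 to 0.32 and Birc3 from -1.92 to 1.56. The subsets hold fewer tumours and genes tested; otherwise the cause was not tested. Few insertions per gene limit the comparison: most genes changed 4-fold in simulated data were missed. No paired analysis was possible because the replicate numbers follow accession order and pair no samples.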
